A study of Mus musculus with 12 samples.

Results

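Alternative exons whose length is no multiple of 3 were followed through fasting and refeeding in mouse liver with and without lipin 1. Between coding exons, an exon of this kind shifts the reading frame of the mRNA each time it is included or skipped. Many of the exons followed here lie in a UTR or have no assigned reading frame. The word frame-shifting refers to their length alone. A skipped exon (SE) event is an exon with the exons on either side of it, read as an inclusion form that holds the exon and a skipping form that joins its neighbours directly. The deposited tables for fasted and refed liver hold 84592 and 75694 such events, of which 34416 have identical coordinates in both tables and 28447 have at least 10 counts over both forms in each of the 12 libraries. Of these, 1573 events were chosen by an exon of 28 to 300 bases that is not a multiple of 3 and by a mean inclusion between 0.1 and 0.9 in refed wild-type (WT) liver. Inclusion is the count of the inclusion form per base of its effective length, divided by the sum of that value and the same value for the skipping form. The 1573 events hold 1429 different exons of 1003 genes, out of 25322 exons of 7097 genes in all. Their lengths leave a remainder of 1 base in 763 events and of 2 bases in 810, with a median of 113 bases (quartiles 82 and 158). At the lower limit the Mfsd4b3 exon of 146 bases (0.10009) was kept and the Mylk exon of 118 bases (0.09998) was not, and at the upper limit the Cyp2d26 exon of 64 bases (0.89963) was kept and the Fam234a exon of 112 bases (0.90058) was not.

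Liver RNA came from male BALB/cByJ mice that were either wild-type littermates or Lpin1-/-, and each of the 4 groups had 3 mice with 1 library each. Lpin1-/- mice are the fatty liver dystrophy (fld) strain, which carries a spontaneous mutation of Lpin1 in every tissue, so that an effect that starts outside the liver cannot be told apart from one that starts in it. Mice were housed singly and fasted for 16 h overnight, and the refed groups then had chow for 5 h. The refed livers were thus taken later in the day, so that feeding and time of day cannot be told apart, and the mice ranged in age over several months. Because inclusion in refed WT liver chose the exons, both comparisons with that group are given as a description. The tested comparisons were fasted Lpin1-/- against fasted WT, and refed against fasted Lpin1-/-. Both share the fasted Lpin1-/- libraries and are not independent of each other.

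Cells use frame-shifting exons as switches. When the form with the shifted frame meets a stop codon well upstream of the last exon junction, the mRNA is a substrate of nonsense-mediated decay, and an exon that brings such a stop is often called a poison exon. Many genes for splicing factors, among them those for SR proteins and for the CLK kinases that phosphorylate them, hold such exons, and the proteins can set their own level through them. In counts of mRNA, splicing and decay cannot be told apart.

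The 14 lines that follow show exons described below for which an early stop was traced, outside the 5′ UTR. The Rnps1 exon of 122 bases lies in the 5′ UTR and is not among them. Its inclusion gives an early stop and was lower in fasted Lpin1-/- than in fasted WT. All 14 are exons of GENCODE M21 transcripts, and their sequence is given 5′ to 3′ on the strand of the gene in the build GRCm38. In the first 12 lines inclusion gives an early stop, defined as a stop codon more than 50 bases before the last junction. Where that stop lies wholly within the exon, the sequence runs from the first base of the exon to the stop codon, which is in capitals. The Clk4 exon of 67 bases completes its stop with its first base, in capitals. The Clk4 exon of 59 bases, the Luc7l exon and the Nktr exon hold no stop in the frame of the upstream exon and are printed whole, with the early stop 8, 105 and 66 bases after their end. The last 2 lines show exons whose skipping gives the early stop, printed whole.
Clk4 67 (chr11:51268165-51268231, plus strand): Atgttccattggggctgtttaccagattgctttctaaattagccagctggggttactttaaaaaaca
Clk4 59 (chr11:51270537-51270595, plus strand): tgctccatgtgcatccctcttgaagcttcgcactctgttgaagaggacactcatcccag
Srsf11 109 (chr3:158024209-158024231, minus strand): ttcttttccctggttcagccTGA
Luc7l 71 (chr17:26253974-26254044, plus strand): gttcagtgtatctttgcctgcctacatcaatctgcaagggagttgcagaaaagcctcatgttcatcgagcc
Prpf38b 71 (chr3:108905977-108905988, minus strand): gtttgggacTGA
Prpf38b 53 (chr3:108910390-108910395, minus strand): gatTGA
Prpf39 100 (chr12:65055434-65055520, plus strand): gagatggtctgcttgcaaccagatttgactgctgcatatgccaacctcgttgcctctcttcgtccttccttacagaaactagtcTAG
Rbm39 73 (chr2:156178881-156178952, minus strand): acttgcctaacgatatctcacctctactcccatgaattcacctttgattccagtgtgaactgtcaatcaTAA
Tial1 68 (chr7:128446765-128446798, minus strand): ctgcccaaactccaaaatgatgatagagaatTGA
Dhx9 139 (chr1:153476520-153476562, minus strand): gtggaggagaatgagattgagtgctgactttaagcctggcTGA
Nktr 28 (chr9:121738388-121738415, plus strand): aaacagtgttacaccgtgcgctccaaag
Thrap3 193 (chr4:126173282-126173329, minus strand): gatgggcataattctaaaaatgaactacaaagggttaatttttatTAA
Clk4 91 (chr11:51273078-51273168, plus strand): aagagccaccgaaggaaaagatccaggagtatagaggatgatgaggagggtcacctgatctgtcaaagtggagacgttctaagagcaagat
Hnrnpk 44 (chr13:58397753-58397796, minus strand): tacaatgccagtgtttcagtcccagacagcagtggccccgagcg

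The libraries held 100125658 to 150927559 counts over the 28447 events, where reads of an exon with several events count in each, and the median chosen event had 66 to 145 counts in a library. In 344 of the 1573 events at least 1 library had no count of one of the forms. The splicing tables list the 3 libraries of a group in a fixed order without a replicate number, and library 1, 2 and 3 here mean that order. Library 1 of fasted Lpin1-/- stood farthest apart, with a mean correlation of inclusion of 0.7362 with libraries of other groups and 0.8689 with its own group. Lpin1 itself was at 21.96, 0.7259 and 1.757 RPKM (reads per kilobase of the gene, scaled to the reads of the library) in fasted WT, 0.7835 to 2.916 RPKM in refed WT and at most 0.05973 RPKM in the 6 Lpin1-/- libraries, so that the genotypes did not overlap, and 1 fasted WT library lay far above the rest. Summed RPKM of 7 hepatocyte markers was 32800 to 76500 over all libraries. The 7 Kupffer cell markers summed to 118 to 243 RPKM in fasted WT, 219 to 578 in fasted Lpin1-/-, 64.8 to 502 in refed WT and 67.4 to 165 in refed Lpin1-/-. For 7 stellate cell markers the ranges were 67.5 to 158, 199 to 281, 70.5 to 186 and 162 to 207, and for 6 cholangiocyte markers, with Cftr at 0, they were 32.1 to 45.8, 24.9 to 452, 31.6 to 103 and 19.2 to 27.8. The 6 endothelial markers summed to 20.1 to 50.3, 40.4 to 59.7, 25.8 to 54.8 and 34.3 to 48.1 RPKM, and 6 lymphocyte markers to 1.14 to 25.9 RPKM over all libraries. Of these markers, endothelial Lyve1 alone passed the test in fasted Lpin1-/- against fasted WT (log2 change 1.77 ± 0.46 SE, limma adjusted p = 0.0208), and Kupffer cell Clec4f alone on refeeding of Lpin1-/- (-1.28 ± 0.34, adjusted p = 0.0235). In bulk liver, fewer cells of a type and less RNA per cell cannot be told apart, and the part of other cell types in the results on exons was not tested.

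The median of the frame-shifting events lay near the middle of the range in every group, but single events spread widely. Lower quartiles were 0.228 to 0.243 and upper quartiles 0.79 to 0.812 over the groups. The range in refed WT was set by the choice of events. Median inclusion over the 1573 events was 0.567 in fasted WT, 0.550 in fasted Lpin1-/-, 0.560 in refed WT and 0.542 in refed Lpin1-/-, and the median SD over the 3 libraries of a group was 0.0522 to 0.0681, largest in fasted Lpin1-/-. Outside refed WT, 1253 to 1310 of the events were again between 0.1 and 0.9.

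Fasted livers of both genotypes differed at many of these exons, in both directions, but at a share no higher than that of all events. In fasted Lpin1-/- against fasted WT, 233 of 1573 events passed an adjusted p of 0.05 (limma on log2 of the length-corrected ratio of inclusion to skipping, Benjamini-Hochberg over all 28447 events), with 127 higher and 106 lower. This is 14.8%, beside 16.4% of all events tested, of which 5.11% were higher and 11.3% lower. The groups did not overlap at 531 events (33.8%), against 25.9% of all events and 33.9% of 1264 events with frame-keeping alternative exons. Counted once per exon, 217 of 1429 exons passed (15.2%, beside 17% of all exons), with 117 higher and 100 lower (5.46% and 11.5% of all exons). All exons had a median inclusion of 98.5% in refed WT, beside 52.5% for these 1429. Shares of all exons, here and below, are thus not matched for level. The balance of directions was not seen in all classes of exon: in the 10811 events with mostly included frame-shifting exons, 55 were higher and 1832 lower. The 1170 alternative exons that keep the frame had 80 higher and 80 lower. The count of called events fell to 150 without fasted WT library 1 and to 148 without fasted WT library 3.

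Refeeding of Lpin1-/- mice changed fewer of the exons. Refed against fasted Lpin1-/- liver gave 131 called events (8.33%, beside 7.8% of all events), with 48 higher (5.31% of all events were) and 83 lower (2.5% of all events were). The lean to lower inclusion was smaller with precision weights (109 higher, 122 lower) and with a quasi-binomial test of the counts (102 higher, 123 lower). The groups did not overlap at 507 events (32.2%, against 19.7% of all events and 32% of events with frame-keeping alternative exons). By exon, 124 passed (8.68%, beside 8.19%), with 42 higher and 82 lower (5.49% and 2.71% of all exons), and the frame-keeping alternative exons had 38 higher and 62 lower. Mostly included frame-shifting exons moved the other way, with 848 events higher and 42 lower. The count of called events was 80 without fasted Lpin1-/- library 1, 58 without refed Lpin1-/- library 2 and 77 without refed Lpin1-/- library 3.

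**Figure D1:**
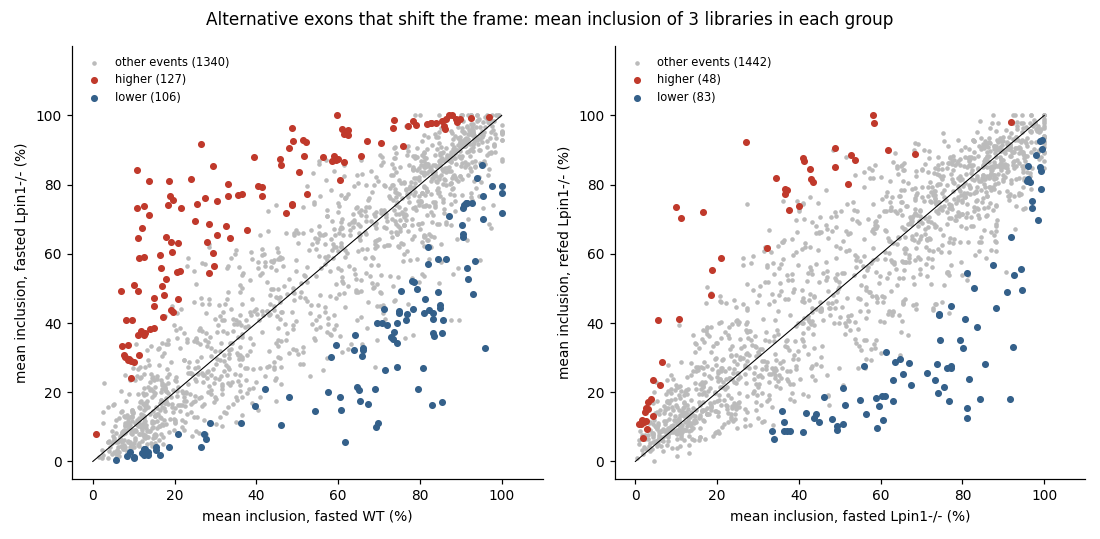
Mean inclusion in percent of 1573 events with alternative frame-shifting exons, each point the mean of 3 libraries in the group on each axis; left, fasted WT (x) and fasted Lpin1-/- (y), right, fasted (x) and refed (y) Lpin1-/-. Coloured events passed an adjusted p of 0.05 with higher (127 and 48) or lower (106 and 83) inclusion in the group on the y axis, and most events lie along the diagonal line of equal inclusion.

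Direction followed the level of the exon. Among the 693 exons under 0.5 in refed WT, 79 were higher and 24 lower in fasted Lpin1-/- than in fasted WT, whereas among the 736 exons at 0.5 or more 38 were higher and 76 lower. The frame-keeping exons split alike, with 62 higher and 23 lower among 562, and 18 higher and 57 lower among 608. After refeeding of Lpin1-/- mice 58 of the 693 less included exons were lower and 19 higher, while 24 of the 736 were lower and 23 higher. The level was itself part of the choice of exons, so these counts are a description.

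To place the exons in their genes, each was compared with the exons of GENCODE M21. An exon with the same coordinates was found for 797 of 1429 (55.8%, against 68.4% of the frame-keeping exons). Of these, 284 lay in coding sequence (19.9% of 1429, against 45.8% of frame-keeping exons), 100 in coding sequence or a UTR depending on the transcript, 185 in the 5′ UTR and 2 in the 3′ UTR. A further 134 exons (9.38%, against 5.3%) occur solely in transcripts marked as targets of nonsense-mediated decay, and 92 in other noncoding transcripts. The other 632 exons are not annotated at these coordinates. Among them 386 share 1 splice site with an annotated exon, 152 lie within introns, 91 overlap an annotated exon without sharing a splice site, and 3 join splice sites of different annotated exons. The unannotated exons of Son, Rexo1, Tomm34, U2af1l4 and Crat described below each share 1 splice site with an annotated exon. Most genes (707) had 1 exon of the set, while Firre and Prodh2 had 7 each, of which 1 Prodh2 exon passed the test in the fasted comparison.

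A reading frame could be followed through 643 exons, of which 442 are skipped and 201 included in the reference coding transcript of their gene. Inclusion gave an early stop for 174 exons, with the stop within the exon for 135 and after it for 39. These poison-type exons were mostly the minor form, with a median inclusion of 25.6% in refed WT, and 102 of them are annotated solely in transcripts marked for decay. The early stop left a median of 28.4% of the reference codons (quartiles 9.7% and 62.8%). Skipping gave an early stop for 139 exons, whose median inclusion was 84% and which kept a median of 27.3% of the codons (14.4% to 40.7%). A shifted frame without an early stop followed from inclusion of 50 exons and skipping of 61, the reference form itself ended early for 5, and 214 exons with a known skipping frame had no annotated sequence. No reading frame was assigned to 786.

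Of the 174 exons that bring an early stop, 29 passed the test in fasted Lpin1-/- liver, and 24 of these were higher and 5 lower than in fasted WT, a share of called exons of 13.8% in the higher direction, beside 5.46% of all exons. Over all 174 the mean was higher for 95 and lower for 79, with a median difference of 1.16 points. Of the 139 exons whose skipping gives an early stop, 3 were higher (2.16%) and 10 lower (7.19%). Of the 214 unannotated exons with a known skipping frame, 24 were higher (11.2%) and 11 lower (5.14%). Of all exons, 5.46% were higher and 11.5% lower. Among exons at 0.5 or more in refed WT, 7.75% of those whose skipping gives the stop were lower, beside 10.3% of all frame-shifting ones. After refeeding of Lpin1-/- mice 20 of the 174 exons fell and 6 rose (2.71% of all exons fell and 5.49% rose). In the 139 exons of the other class 2 fell and 3 rose, and in the 214 unannotated exons 22 fell and 7 rose. No test compares these classes with each other, and low inclusion goes together with the early stop: of the 128 exons of this class under 0.5 in refed WT, 20 were higher and 5 lower in the fasted comparison, beside 59 higher and 19 lower among the 565 other frame-shifting exons under 0.5. Leaving out 1 library gave 14 to 24 higher and 2 to 6 lower exons in the fasted comparison, with the fewest called, 16 exons, without fasted WT library 3. In the refeeding comparison it gave 13 to 23 lower and 1 to 6 higher, with 17 called exons without fasted Lpin1-/- library 1, 14 without refed Lpin1-/- library 2 and 16 without refed Lpin1-/- library 3. For the unannotated class these were 18, 14 and 17 exons. The counts for exons whose skipping gives the stop were as uneven. In the fasted comparison 8 or 7 were called without fasted WT library 1 or 3 and 8 without fasted Lpin1-/- library 2, and without fasted Lpin1-/- library 1 there were 6 higher and 5 lower. In the refeeding comparison 3 were called without fasted Lpin1-/- library 1 or refed WT library 1, 1 without fasted Lpin1-/- library 2 or refed Lpin1-/- library 3 and 0 without refed Lpin1-/- library 2, while with precision weights or the quasi-binomial test 10 rose and 1 fell.

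**Figure D2:**
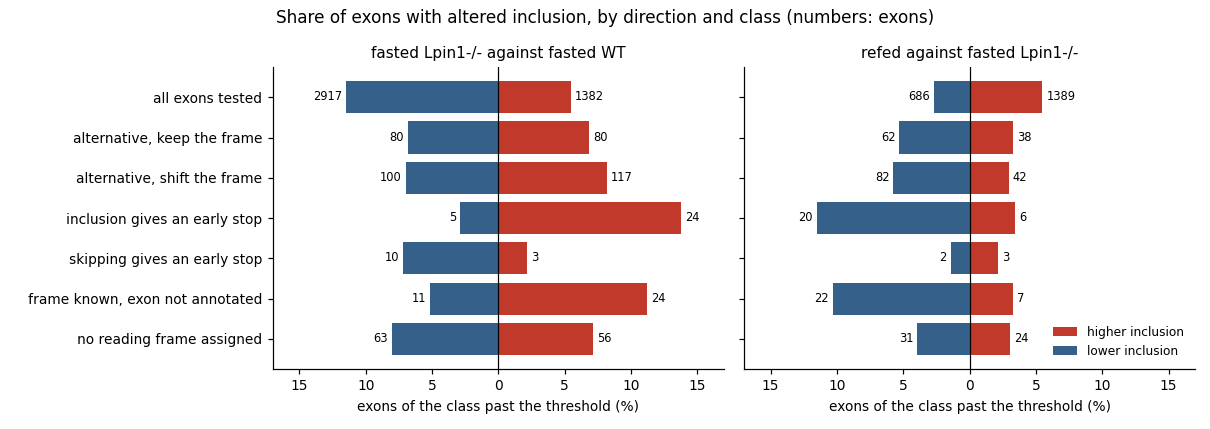
Percent of exons in each class that passed an adjusted p of 0.05, with lower inclusion drawn to the left and higher inclusion to the right, for fasted Lpin1-/- against fasted WT and for refed against fasted Lpin1-/-; numbers beside the bars count exons. Exons whose inclusion gives an early stop had 24 higher and 5 lower in the first comparison and 6 higher and 20 lower in the second.

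Genes of the splicing kinases held 9 of the exons in 5 genes, of which 3 changed in fasted Lpin1-/- liver (2 higher, 1 lower) and 5 after refeeding of Lpin1-/- mice (3 higher, 2 lower), all in Clk1 and Clk4, dual-specificity kinases of SR proteins. Of all exons, 17% changed in the fasted and 8.19% in the refeeding comparison. The Clk4 exon of 67 bases is coding in another annotated transcript, and in the reference frame its inclusion leaves 53 of 481 codons. It was included at 17.3%, 27.6% and 27.6% in fasted WT, and at 79.0%, 89.0% and 76.4% in fasted Lpin1-/-. The refed libraries were at 18.4%, 27.9% and 21.2% in WT and at 27.7%, 21% and 22.8% in Lpin1-/-. Fasted Lpin1-/- thus stood alone at high inclusion, 57.3 percentage points above fasted WT (log2 ratio change 3.85 ± 0.51 SE, limma adjusted p = 0.00026), and on refeeding it fell by 57.7 points (adjusted p = 0.000883). The Clk4 exon of 59 bases, annotated in transcripts marked for decay, leaves 76 codons. Its inclusion was 25.9%, 34.9% and 22.8% in fasted WT and 60.1%, 74.1% and 55.8% in fasted Lpin1-/-, without overlap (35.5 points, adjusted p = 0.0066). In refed Lpin1-/- it was 31.8%, 30.7% and 23.9%, within 0.5 points of the refed WT mean (difference from fasted Lpin1-/- of -34.6 points, adjusted p = 0.0164, lost without fasted Lpin1-/- library 2 or refed Lpin1-/- library 3 at 0.0657 to 0.0689).

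The coding Clk4 exon of 91 bases, without which 134 of 481 codons remain, moved the other way. It was included at 83.3%, 45.1% and 82.6% in fasted WT and at 36.8%, 41.1% and 68.8% in fasted Lpin1-/-, ranges that overlapped (-21.5 points, adjusted p = 0.204). Refeeding of Lpin1-/- mice raised it to 77.9%, 92.5% and 84.6% (36.1 points, adjusted p = 0.0418). A form of 88 bases that starts 3 bases further in shares its reads and gave 40.6 points (adjusted p = 0.0273). Neither call was stable: that of the 91-base form was lost without fasted Lpin1-/- library 1 or 2, any refed WT library or refed Lpin1-/- library 2 or 3 (adjusted p = 0.0534 to 0.165), and that of the 88-base form without fasted Lpin1-/- library 1 or 2 or refed Lpin1-/- library 2 or 3 (0.0643 to 0.125). In Clk1 an unannotated exon of 88 bases (chr1:58420121-58420208, minus strand) was included at 92.6%, 69.2% and 80.4% in fasted WT and at 24.4%, 15.1% and 41.4% in fasted Lpin1-/-. This Clk1 exon shares 1 splice site with an annotated exon. The difference of -53.7 points (log2 ratio change -3.78 ± 0.68 SE, adjusted p = 0.00186) stood against a rise after refeeding, to 90.9%, 95.9% and 89.8% (65.2 points, adjusted p = 0.000883). Refed WT values of the Clk1 exon were 88.3%, 90.2% and 91.3%.

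Among 11 exons in 6 SR protein genes, 4 were higher in fasted Lpin1-/- (5.46% of all exons were) and 4 lower after refeeding (2.71% of all exons were), 3 of them overlapping forms of 1 Srsf11 exon. Srsf11 encodes an SR-related splicing factor, and the annotated form of 109 bases occurs in transcripts marked for decay and leaves 147 of 511 codons. Its inclusion was 15.1%, 28.9% and 14.7% in fasted WT and 87.0%, 80.1% and 59.5% in fasted Lpin1-/-. In refed Lpin1-/- it was 23.1%, 17.5% and 23.9%, beside 26.3%, 24.9% and 16.1% in refed WT. The 3 fasted Lpin1-/- libraries lay above all others, by 56.0 points over fasted WT (log2 ratio change 3.83 ± 0.59 SE, adjusted p = 0.00069), and on refeeding inclusion fell by 54.1 points (adjusted p = 0.00256). The unannotated forms of 100 and 163 bases start at the same base, share reads with it and gave 55.5 and 51.7 points in the fasted comparison (adjusted p = 0.000837 and 0.00152). In Son, which encodes an RS-domain protein of nuclear speckles, an unannotated exon of 194 bases (chr16:91664920-91665113, plus strand) was included at 7.6%, 24.2% and 19.9% in fasted WT and 48.7%, 41.7% and 34.6% in fasted Lpin1-/- (24.4 points, adjusted p = 0.0314). It was at 12.6%, 17.5% and 11.8% in refed Lpin1-/- (-27.7 points against fasted, adjusted p = 0.0315). Both Son calls depended on single libraries: the first was lost without fasted WT library 1 or 3 or fasted Lpin1-/- library 1 or 2 (0.0513 to 0.144), and the second without fasted Lpin1-/- library 1 or 2 or any refed Lpin1-/- library (0.0636 to 0.106).

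The widest set was that of the spliceosome and its regulators, with 38 exons in 24 genes. In fasted Lpin1-/- liver 11 of these were higher and 1 lower (5.46% and 11.5% of all exons were), and 10 fell and 2 rose after refeeding of Lpin1-/- mice (2.71% and 5.49% of all exons did), with a median difference of 7.59 and -12.7 points over the 38 exons, beside -0.0912 and -0.498 points over all 1429. The shares of all exons are not matched for level. Among all frame-shifting exons under 0.5 in refed WT, 11.4% were higher and 3.46% lower in the fasted comparison. On refeeding of Lpin1-/- mice, 8.37% of those exons fell and 2.74% rose. The list of spliceosome genes was written from general knowledge with earlier results of these data known. Luc7l, which encodes a protein of the U1 snRNP, had an exon of 71 bases that is annotated in transcripts marked for decay and leaves 79 of 371 codons. Its inclusion was 19.7%, 38.2% and 21.6% in fasted WT and 87.6%, 95.1% and 92.3% in fasted Lpin1-/-, and fell to 29.0%, 9.6% and 15.7% in refed Lpin1-/-. The refed WT libraries were at 12.9%, 30.7% and 9.1%. Inclusion was thus at least 87.6% in the fasted Lpin1-/- libraries and at most 38.2% in every other library. For Luc7l the difference was 65.2 points over fasted WT (log2 ratio change 5.00 ± 0.67 SE, limma adjusted p = 0.000293) and -73.6 points on refeeding (adjusted p = 0.000568). Its relative Luc7l2 has an unannotated exon in 2 overlapping forms of 74 and 71 bases (chr6:38569932-38570005, plus strand) that share reads. The longer form was at 13.5%, 35.6% and 14.8% in fasted WT, 54.1%, 50.5% and 60.4% in fasted Lpin1-/-, and 12.0%, 23.4% and 18.3% in refed Lpin1-/- (33.7 points up, adjusted p = 0.0129, and -37.1 points, adjusted p = 0.0146). The first of these calls was lost without fasted WT library 1 or 3 (0.0575 to 0.0618) and the second without refed Lpin1-/- library 1 (0.0539). The shorter form differed by 30.5 points (adjusted p = 0.0363) and -35.7 points (adjusted p = 0.0234), and was lost without fasted WT library 1 or 3 or any fasted Lpin1-/- library (0.0623 to 0.148), or without fasted Lpin1-/- library 1 or refed Lpin1-/- library 1 or 3 (0.0691 to 0.0906).

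In Prpf38b, a gene for a pre-mRNA processing factor, 2 exons are annotated in transcripts marked for decay and leave 190 and 94 of 542 codons. The exon of 71 bases was included at 13.6%, 25.4% and 19.1% in fasted WT and at 51.6%, 70.3% and 59.5% in fasted Lpin1-/- (41.1 points, adjusted p = 0.00471). In refed Lpin1-/- it was at 14.7%, 5.8% and 15.5% (-48.5 points, adjusted p = 0.00205). These refed values were below the 22.1%, 30.1% and 17.6% of refed WT. The exon of 53 bases rose from 6.7%, 5.0% and 18.7% to 65.2%, 40.6% and 46.8% between fasted WT and fasted Lpin1-/- (40.8 points, adjusted p = 0.00183), and was at 8.7%, 12.2% and 11.4% in refed Lpin1-/- (-40.1 points, adjusted p = 0.00728). Prpf39, which encodes a U1 snRNP component, has an exon of 100 bases that leaves 418 of 665 codons. Its inclusion was 15.7%, 28.8% and 17.8% in fasted WT, 64.2%, 66.3% and 58.6% in fasted Lpin1-/-, 42.9%, 39.6% and 38.2% in refed WT and 19.2%, 29.9% and 21.6% in refed Lpin1-/-. Fasted Lpin1-/- lay highest and refed WT next, above the other groups, and the order of the genotypes was opposite in fasted and refed liver (42.3 points in fasted liver, adjusted p = 0.00151, and -39.5 points on refeeding, adjusted p = 0.00657).

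Other exons of this set changed less or less stably. The Rbm39 exon of 73 bases, in a gene for an RS-domain coactivator of splicing, leaves 40 of 530 codons. It was at 21.1%, 58.9% and 33.3% in fasted WT and 64.2%, 70.0% and 66.9% in fasted Lpin1-/- (29.2 points, adjusted p = 0.0395), a call that was lost without fasted WT library 1 or 3, any fasted Lpin1-/- library, refed WT library 2 or refed Lpin1-/- library 2 (0.0501 to 0.175). Its fall to 24.2%, 28.9% and 32.2% in refed Lpin1-/- (-38.6 points, adjusted p = 0.02) was lost without fasted Lpin1-/- library 2 or refed Lpin1-/- library 1 or 2 (0.0611 to 0.0645). For Tial1, whose protein binds U-rich RNA, the exon of 68 bases was at 17.5%, 37.1% and 33.3% in fasted WT, 71.4%, 52.1% and 57.4% in fasted Lpin1-/- and 25.4%, 16.8% and 14.4% in refed Lpin1-/-. The groups did not overlap, but the fasted call (31.0 points, adjusted p = 0.047) was lost without any 1 of 11 libraries, all but refed WT library 3 (0.0514 to 0.183), and the refeeding call (-41.4 points, adjusted p = 0.016) without fasted Lpin1-/- library 1 or refed Lpin1-/- library 2 or 3 (0.061 to 0.0655). The Dhx9 exon of 139 bases, in the gene for an RNA helicase, was at 5.9%, 20.6% and 10.8% in fasted WT and 39.7%, 41.5% and 28% in fasted Lpin1-/- (23.9 points, adjusted p = 0.0218), and at 5.8%, 12.4% and 15.6% in refed Lpin1-/- (-25.1 points, adjusted p = 0.0298). Both were lost without any 1 of 4 libraries: fasted WT library 1 or 3 or fasted Lpin1-/- library 1 or 2 for the first (0.062 to 0.104), and fasted Lpin1-/- library 1 or 2 or refed Lpin1-/- library 1 or 2 for the second (0.07 to 0.111).

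The Thrap3 exon differed between the feeding states of Lpin1-/- liver. Thrap3 encodes an RS-rich protein of splicing complexes, and its exon of 193 bases leaves 717 of 951 codons. The exon was at 8.5%, 2.9% and 4.3% in fasted WT and at 4.9%, 5.0% and 8.1% in fasted Lpin1-/-, with no difference between them past the threshold (0.7 points, adjusted p = 0.771). In refed Lpin1-/- it was at 18.8%, 27.5% and 20% (16.2 points above fasted, adjusted p = 0.03), and in refed WT, which was part of the choice of exons, at 28.5%, 12.5% and 15.6%. The call was lost without fasted Lpin1-/- library 1 or 2 or any refed Lpin1-/- library (0.0531 to 0.117).

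The muscleblind genes, whose proteins set the splicing of many tissue-specific exons, each had a coding exon of 95 bases whose shift leads to no early stop. In Mbnl1 (chr3:60622146-60622240, plus strand) it was included at 50.4%, 53.6% and 47.3% in fasted WT and 84%, 75.8% and 91.2% in fasted Lpin1-/- (33.2 points, adjusted p = 0.00791). Refeeding brought it to 47.4%, 33.2% and 35.7% (-44.9 points, adjusted p = 0.00412), and the reading frame is 347 codons long without and 387 with the exon. In Mbnl2 (chr14:120404638-120404732, plus strand) inclusion was 68.4%, 73.9% and 85.0% in fasted WT and 91.4%, 96.0% and 86.5% in fasted Lpin1-/- (15.5 points, adjusted p = 0.0426). That call was lost without fasted WT library 1 or 2, fasted Lpin1-/- library 1 or 2, any refed WT library or refed Lpin1-/- library 2 (0.0527 to 0.165). The Mbnl2 exon was at 81.0%, 77.6% and 68.1% in refed Lpin1-/- (-15.7 points against fasted, adjusted p = 0.0687, not past the threshold) and at 55.2%, 49.5% and 54.9% in refed WT, so that refed Lpin1-/- lay above refed WT in Mbnl2 but not in Mbnl1.

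**Figure D3:**
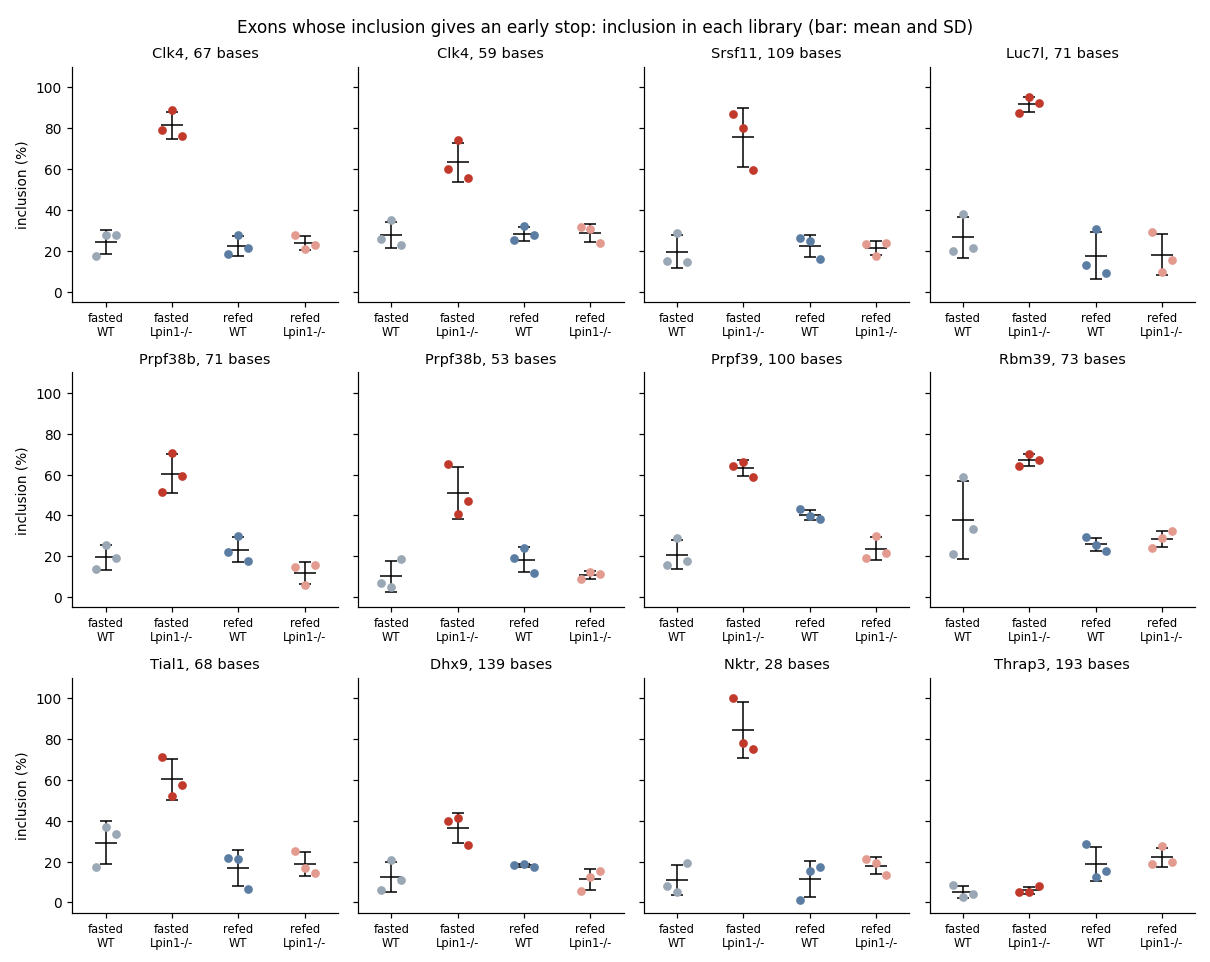
Inclusion in percent of 12 exons whose inclusion gives an early stop, in the 3 libraries of each group (points), with the mean and SD (bars). In 11 of the panels fasted Lpin1-/- has the highest mean, as for Luc7l with all 3 libraries from 87.6% to 95.1%, and Thrap3 is higher in both refed groups. None of the 5 exons of this class called lower in fasted Lpin1-/- is drawn. Among these is the Rnps1 exon of 122 bases, with means of 42.1% in fasted WT and 20.9% in fasted Lpin1-/-.

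Of 13 exons in 12 hnRNP genes, 1 was higher and 1 lower in fasted Lpin1-/- (5.46% and 11.5% of all exons were), and 1 fell on refeeding (2.71% of all exons did). Hnrnph1 and Hnrnpk encode abundant nuclear RNA-binding proteins. The Hnrnph1 exon of 50 bases (chr11:50385141-50385190, plus strand) was at 83.8%, 87.8% and 87.1% in fasted WT and at 96.9%, 96.9% and 94.5% in fasted Lpin1-/- (9.9 points, adjusted p = 0.0136, lost without fasted WT library 1 at 0.0537). On refeeding it was at 87.1%, 84.5% and 84.9% (-10.6 points, adjusted p = 0.0205, lost without fasted Lpin1-/- library 1 or 2 or refed Lpin1-/- library 2 or 3 at 0.0597 to 0.0715). The coding Hnrnpk exon of 44 bases, whose skipping leaves 77 of 463 codons, was at 91.9%, 64.6% and 89.2% in fasted WT and at 60.1%, 56.0% and 55.4% in fasted Lpin1-/- (-24.7 points, adjusted p = 0.0427). This call was lost without fasted WT library 1 or 3, any fasted Lpin1-/- library, refed WT library 1 or any refed Lpin1-/- library (0.052 to 0.176), and the return to 82.3%, 84.9% and 87.2% on refeeding did not pass the test (27.6 points, adjusted p = 0.0614).

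Genes of nonsense-mediated decay and the exon junction complex held 9 exons in 4 genes, of which 2 were lower in fasted Lpin1-/- (11.5% of all exons were). Both lower exons are forms of 1 exon of Rnps1, which encodes a component of the exon junction complex. The form of 41 bases (chr17:24415041-24415081, plus strand) was at 17.8%, 24.5% and 13.9% in fasted WT and 2.9%, 4.6% and 5.5% in fasted Lpin1-/- (-14.4 points, adjusted p = 0.0084). The form of 122 bases shares its reads, gives an early stop when included and fell by 21.3 points (adjusted p = 0.0332, lost without any fasted WT library or fasted Lpin1-/- library 1 or 3 at 0.0655 to 0.0933).

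Genes that the study examined by RT-PCR held 2 of the exons. U2af1l4 encodes a relative of the small U2AF subunit, and its unannotated exon of 68 bases (chr7:30564540-30564607, plus strand) was at 41.2%, 58.3% and 85.7% in fasted WT and at 6.6%, 5.3% and 5.0% in fasted Lpin1-/- (-56.1 points, log2 ratio change -4.63 ± 0.84 SE, adjusted p = 0.00189). The fasted WT values rested on 12 to 19 counts a library, and the rarer form had a mean of 7.0 counts. Refed Lpin1-/- libraries spread over 14.7%, 70.6% and 37.5% (35.3 points above fasted, adjusted p = 0.026), a call lost without any fasted Lpin1-/- library or refed Lpin1-/- library 2 or 3 (0.0534 to 0.123). Hnrnpa2b1 had an exon of 136 bases in the 3′ UTR with 1271 to 1954 counts in every library, the deepest of the exons named. It was at 33.1%, 37.5% and 31.9% in fasted WT and 38.6%, 46.9% and 38.2% in fasted Lpin1-/-, groups that did not overlap but did not pass the test (7.1 points, adjusted p = 0.551, and -8.0 points on refeeding, adjusted p = 0.562). The study's named targets of ESRP2 had no exon in the set.

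Over all 1429 exons, the largest rises in fasted Lpin1-/- by the rule for named exons, which takes the 8 called exons of each direction with the largest difference and no overlap, were in Nktr, Uckl1, Luc7l, Rexo1, Acox2, Gm4951, Tbp and Fam169b. Nktr encodes a cyclophilin with an RS domain, and its exon of 28 bases was at 8.1%, 5.2% and 19.1% in fasted WT and 100%, 78.0% and 75.1% in fasted Lpin1-/- (73.5 points, adjusted p = 0.00154), but with a mean of 4.8 counts of the rarer form. In Rexo1, a gene for an RNA exonuclease, an unannotated exon of 125 bases (chr10:80549065-80549189, minus strand) rested on 25.2 counts of the rarer form. It was at 13.3%, 26.8% and 15.8% in fasted WT and 88.7%, 80.9% and 73.3% in fasted Lpin1-/- (62.3 points, log2 ratio change 4.23 ± 0.54 SE, adjusted p = 0.000217), and returned to 16.7%, 9.5% and 11.6% on refeeding (-68.4 points, adjusted p = 0.0005). Uckl1 (89 bases, 3.5 counts of the rarer form) and Tbp (46 bases, in the 5′ UTR of the gene for the TATA-binding protein) differed by 67.3 and 57.7 points (adjusted p = 0.00117 and 0.0052). Fam169b (131 bases) and Gm4951 (109 bases, in the 5′ UTR) differed by 57.5 and 61.4 points (adjusted p = 0.000746 and 0.00111). Gm4951 belongs to a family of similar genes, so that its reads may be shared.

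On the same rule, the largest falls on refeeding of Lpin1-/- mice were in Luc7l, Rexo1, Nktr, Uckl1, Alkbh1, Tbp, Clk4 and Tomm34. On refeeding the Nktr exon fell by 66.3 points to 21.4%, 19.1% and 13.6% (adjusted p = 0.00912), that of Uckl1 fell by 65.7 points (adjusted p = 0.00325) and that of Tbp fell by 59.2 points (adjusted p = 0.011, lost without refed Lpin1-/- library 2 at 0.0513). In Alkbh1, a nucleic acid demethylase gene, an exon of 73 bases annotated in transcripts marked for decay fell from 96.2%, 85.6% and 95.3% to 36.4%, 42.5% and 20.3% (-59.3 points, adjusted p = 0.00338). The unannotated exon of 236 bases of Tomm34, a cochaperone of mitochondrial import, fell from 94.5%, 86.2% and 75.4% to 28.5%, 27.6% and 28.7% (-57.1 points, adjusted p = 0.00198). Gm4951 and Fam169b each fell by 45.6 points (adjusted p = 0.0222 and 0.0152). Those last calls were lost without fasted Lpin1-/- library 1 or 3 or refed Lpin1-/- library 1 or 2 for Gm4951 (0.0656 to 0.0875) and without refed Lpin1-/- library 1 or 2 for Fam169b (0.0511 to 0.0657).

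The largest drops in fasted Lpin1-/- were in Gm44805, Ip6k2, 2410002F23Rik, Apoc1, U2af1l4, Clk1, Traf6 and Taf6l. Ip6k2 encodes an inositol hexakisphosphate kinase, and its coding exon of 113 bases (chr9:108796671-108796783, plus strand) was at 95.5%, 92.3% and 100% in fasted WT and 28.3%, 41.5% and 28.4% in fasted Lpin1-/- (-63.2 points, adjusted p = 0.000701). It stayed low in refed Lpin1-/-, at 43.8%, 36.7% and 56.3% (12.9 points above fasted, adjusted p = 0.624), beside 100%, 68.2% and 100% in refed WT. Here the genotypes, not the feeding states, were apart. Traf6, a ubiquitin ligase of inflammatory signalling, had a 5′ UTR exon of 203 bases at 65.6%, 87.9% and 48.2% in fasted WT, 16.8%, 12.5% and 20.1% in fasted Lpin1-/- and 59.5%, 82.2% and 74.4% in refed Lpin1-/- (-50.8 points, adjusted p = 0.00216, and 55.6 points up, adjusted p = 0.00351). In 2410002F23Rik a 5′ UTR exon of 179 bases fell from 84.9%, 49.6% and 73.4% to 8.4%, 10.4% and 11.4% (-59.2 points, adjusted p = 0.000462) and rose by 63.6 points on refeeding (adjusted p = 0.000883). Gm44805 (71 bases), with libraries of refed Lpin1-/- as far apart as 14% and 83.0%, fell by 68.2 points in fasted Lpin1-/- (adjusted p = 0.0163, lost without fasted WT library 1 or 3 or fasted Lpin1-/- library 1 or 2 at 0.0556 to 0.0704).

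Other exons with lower inclusion in fasted Lpin1-/- rose on refeeding. Apoc1, for a small apolipoprotein of liver, had an unannotated exon of 137 bases that fell by 58.6 points in fasted Lpin1-/- (adjusted p = 0.000895) and was 38.0 points higher after refeeding (adjusted p = 0.0216, lost without fasted Lpin1-/- library 1 or refed Lpin1-/- library 1 or 3 at 0.0764 to 0.0887). The Taf6l exon of 118 bases fell by 48.4 points in fasted Lpin1-/- and rose by 41.3 points on refeeding (adjusted p = 0.00198 and 0.0137, the second lost without refed Lpin1-/- library 2 or 3 at 0.0574 to 0.066). The largest rises on refeeding of Lpin1-/- also took in Hyal2, Mina, Cyp3a59 and the Clk4 exon of 88 bases. Hyal2 encodes a hyaluronidase, and its 5′ UTR exon of 251 bases (chr9:107568983-107569233, plus strand) had a narrow spread in every group. It was at 74.8%, 71.7% and 76.5% in fasted WT, 33.8%, 39.2% and 29.9% in fasted Lpin1-/-, and 84.6%, 80.7% and 80% in refed Lpin1-/- (-40.0 points, adjusted p = 0.00194, and 47.5 points up, adjusted p = 0.00126). Mina (214 bases, 2.8 counts of the rarer form) rose by 42.2 points (adjusted p = 0.0373, lost without fasted Lpin1-/- library 1 or 2 or refed Lpin1-/- library 1 or 2 at 0.0901 to 0.162). Cyp3a59 (164 bases), of a family of similar genes that may share reads, fell by 38.2 points in fasted Lpin1-/- (adjusted p = 0.0405) and rose by 41.8 points on refeeding (adjusted p = 0.0298). Its fasted call was lost without any fasted WT library, fasted Lpin1-/- library 1 or refed WT library 1 (0.0522 to 0.175), and its refeeding call without fasted Lpin1-/- library 1 or refed Lpin1-/- library 2 or 3 (0.0961 to 0.132).

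**Figure D4:**
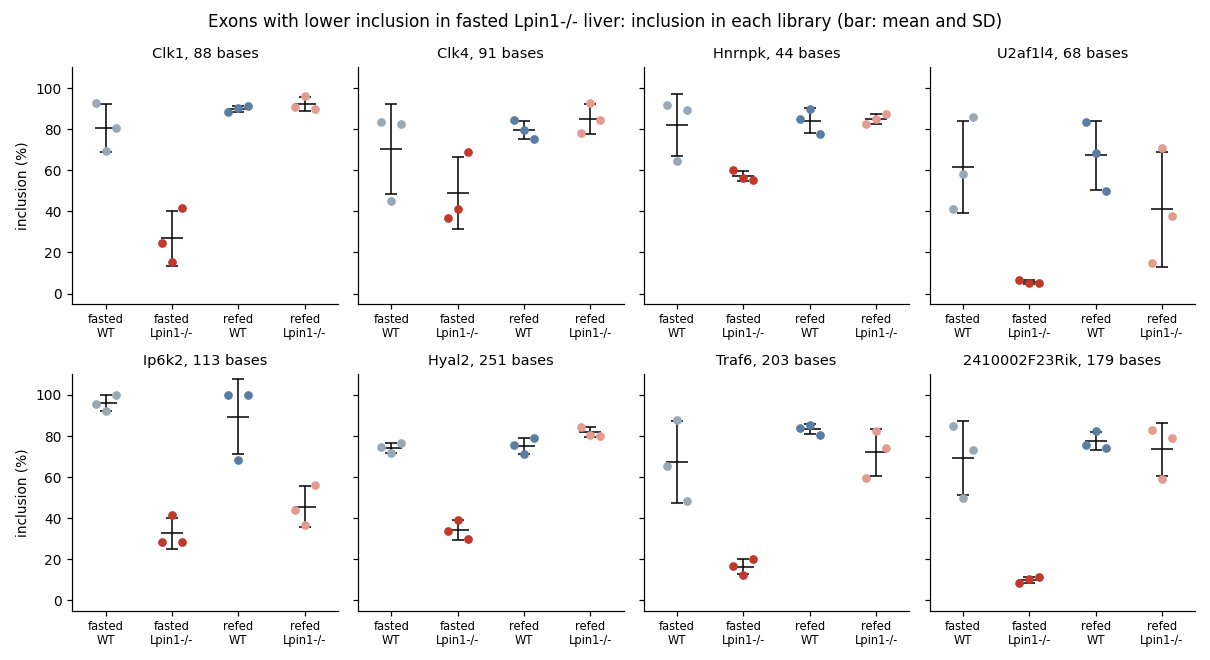
Inclusion in percent of 8 exons with a lower mean in fasted Lpin1-/- than in fasted WT liver, in the 3 libraries of each group (points), with the mean and SD (bars). The refed Lpin1-/- libraries of Clk1, Hyal2, Traf6 and 2410002F23Rik lie within or above the fasted WT range, those of Ip6k2 between 36.7% and 56.3%, and the fasted ranges of Clk4 overlap.

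Metabolic genes held few of the exons. In 16 exons of 8 genes of fatty acid oxidation and PPARα, 2 were higher and 2 lower in fasted Lpin1-/- (5.46% and 11.5% of all exons were). None of them passed on refeeding of Lpin1-/- by limma (8.19% of all exons did). Acox2, a peroxisomal oxidase of branched-chain and bile acid intermediates, had an unannotated intronic exon of 73 bases (chr14:8239893-8239965, minus strand) with 76 to 738 counts a library. It was at 13.6%, 12.9% and 6.1% in fasted WT and 64.7%, 82.5% and 72.2% in fasted Lpin1-/- (62.3 points, log2 ratio change 4.59 ± 0.74 SE, adjusted p = 0.000915). In refed Lpin1-/- it was still at 36.8%, 49.2% and 50% (-27.8 points against fasted, adjusted p = 0.172), above all refed WT libraries. Crat, the carnitine acetyltransferase gene, had an unannotated exon of 188 bases that was 26.1 points higher in fasted Lpin1-/- (adjusted p = 0.0294). In Acaa1b, a peroxisomal thiolase gene, 2 overlapping exons of 238 and 202 bases that share reads differed by -40.3 and -38.6 points (adjusted p = 0.0149 and 0.0218). Of 3 exons in genes of the circadian clock, 2 passed in the fasted comparison (17% of all exons did). That of Arntl (128 bases, 5′ UTR) was 12.6 points higher and that of Nfil3 (130 bases, intronic) fell by 12.1 points in fasted Lpin1-/- (adjusted p = 0.0251 and 0.0255). These calls rested on single libraries: that of Crat was lost without fasted WT library 1 or 3 or fasted Lpin1-/- library 1 or 2 (0.0636 to 0.11), those of the longer and shorter Acaa1b exons without fasted WT library 1 or fasted Lpin1-/- library 2 (0.0708 to 0.0732) and without fasted WT library 1 or 3 or fasted Lpin1-/- library 2 (0.0596 to 0.102), that of Arntl without fasted WT library 2 or 3 or fasted Lpin1-/- library 1 or 3 (0.0752 to 0.0803), and that of Nfil3 without fasted WT library 1 or 3 or fasted Lpin1-/- library 1 or 3 (0.0589 to 0.0881). The 6 exons in genes of phospholipid synthesis had no call in either comparison (17% and 8.19% of all exons did), with median differences of 1.63 and -1.79 points.

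The comparisons with refed WT, the group that chose the exons, are a description, and nothing is read from the counts of events past a threshold in them. Between refed Lpin1-/- and refed WT 14 events (0.89%) passed the same threshold, beside 1.68% of all events, and between refed and fasted WT none did by limma, beside 0% of all events. At an unadjusted p under 0.05 the WT feeding comparison had 120 events (7.63%, beside 5.13% of all events). After adjustment, 2 events passed with precision weights and 4 with a quasi-binomial test of the counts. Groups did not overlap at 391 events (24.9%, beside 16.9% of all events) and at 246 events (15.6%, beside 7.45%). For events with frame-keeping alternative exons these shares were 28.3% and 17.9%. For the Luc7l, Clk4 (67 bases), Srsf11 (109 bases) and Clk1 exons the refed genotypes differed by 0.5, 1.3, -1.0 and 2.3 points. Other named exons stood farther apart. Those of Gm44805, Ip6k2, Acox2, U2af1l4 and Mbnl2 differed by -50.8, -43.8, 32.5, -26.3 and 22.4 points between the refed genotypes.

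The level of the host genes entered the choice through the minimum of 10 counts in each of the 12 libraries, and not otherwise. Of 1003 genes, 941 were in the expression matrix and 939 passed a mean of 0.5 RPKM. In fasted Lpin1-/- against fasted WT 207 host genes changed (22%, beside 18.8% of 11507 genes tested), with 71 higher (5.63% of all genes were) and 136 lower (13.2% of all genes were) by limma on log2(RPKM + 1), where a fold change understates that of low genes. The median host gene changed by -0.1457 and the median of all genes by -0.1431 on this log2 scale. After each library was rescaled by its median ratio, 115 were higher and 93 lower, so that the balance of directions depended on the scaling. Refeeding of Lpin1-/- changed 195 host genes (20.8%, beside 20.7%), 161 higher (17.8% of all genes) and 34 lower (2.92% of all genes), or 66 higher and 71 lower after rescaling, with medians of 0.2692 for host genes and 0.2501 for all. With libraries numbered as in the labels, the first comparison had 91 host genes without fasted WT library 3 and 128 without fasted Lpin1-/- library 2. The second had 104 and 115 without fasted Lpin1-/- library 1 or 2, and 86 and 105 without refed Lpin1-/- library 2 or 3. Between the refed genotypes 68 host genes changed (6.67% of all genes did), and between the WT feeding states 19 (1.72% of all genes did).

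Exons whose inclusion gives an early stop had 150 measured host genes. Of these, 25 changed in fasted Lpin1-/- against fasted WT (16.7%, beside 18.8% of all genes), 11 higher and 14 lower. The 23 early-stop exons with higher inclusion in fasted Lpin1-/- that could be matched lie in 19 measured genes. Of these genes, 4 were higher and 2 lower (5.63% and 13.2% of all genes were). Clk4 rose from 9.07 ± 2.84 to 15.7 ± 0.854 RPKM (SD, n = 3 libraries each, log2 change 0.77 ± 0.20 SE, limma adjusted p = 0.0231), and Luc7l from 6.99 ± 0.714 to 11.6 ± 1.8 RPKM (0.65 ± 0.17, adjusted p = 0.0226). Both calls were lost when 1 library was left out, that of Clk4 without fasted WT library 2 or 3 or any fasted Lpin1-/- library (0.0505 to 0.105) and that of Luc7l without fasted WT library 3 or fasted Lpin1-/- library 1 or 2 (0.0538 to 0.0905). Srsf11, Prpf38b, Prpf39, Rbm39, Tial1, Dhx9 and Nktr had log2 changes of 0.41, 0.07, 0.23, 0.59, 0.30, 0.06 and 0.52, none past the threshold. On refeeding of Lpin1-/- mice Clk4 and Luc7l changed by -0.23 and 0.05 (adjusted p = 0.442 and 0.848). Mbnl1 rose from 5.06 ± 1.02 to 21.1 ± 4.64 RPKM on refeeding (1.86 ± 0.35, adjusted p = 0.00458), while its exon fell. Prpf38b and Hnrnpk rose by 0.77 ± 0.25 and 0.69 ± 0.20 on refeeding (adjusted p = 0.0467 and 0.0326), calls that were lost after rescaling and without any 1 of 10 libraries for Prpf38b (all but fasted WT library 1 or 2, 0.0528 to 0.155) or without fasted Lpin1-/- library 1 or 2 or any refed Lpin1-/- library for Hnrnpk (0.0511 to 0.113). Among the other hosts of named exons, Gm4951 fell from 30.7 ± 5.87 to 1.79 ± 1.65 RPKM in fasted Lpin1-/- (-3.65 ± 0.34, adjusted p = 0.00017), Cyp3a59 from 32.8 ± 9.77 to 8.42 ± 0.221 RPKM (-1.80 ± 0.25, adjusted p = 0.00092) and Acox2 from 131 ± 60.2 to 54 ± 14.9 RPKM (-1.21 ± 0.29, adjusted p = 0.0157, lost without fasted Lpin1-/- library 1 at 0.058). 2410002F23Rik rose from 3.46 ± 0.0925 to 10.6 ± 0.639 RPKM (1.38 ± 0.20, adjusted p = 0.00147).

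**Figure D5:**
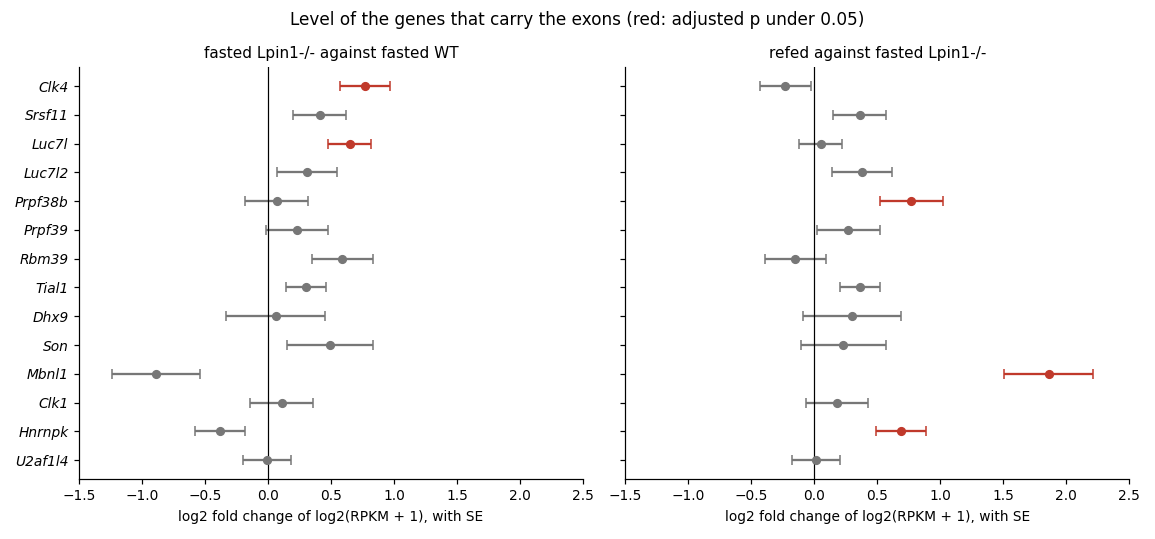
Log2 fold change of RPKM + 1 with its SE for 14 genes that carry the exons described, fasted Lpin1-/- against fasted WT (left) and refed against fasted Lpin1-/- (right); red points passed an adjusted p of 0.05. Clk4 and Luc7l passed in the first comparison and Prpf38b, Mbnl1 and Hnrnpk in the second.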

How the data were processed

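Total liver RNA was sequenced from 12 mice in 4 groups of 3 with a stranded kit and paired reads. The authors aligned reads to GRCm38 (Ensembl release 84), and the submitters' processing notes name HISAT2 2.0.5, HTSeq 0.6.0 and DESeq2 1.20.0. The strand setting of the counting was not given in the sources used here. The authors deposited inclusion and skipping read counts for each SE event from rMATS, 3 libraries to a cell, with effective lengths. Reads lying wholly within an exon counted as inclusion, whether or not they were spliced to its neighbours. The deposited RPKM values, computed by the authors from gene counts, were used for host genes. The p-value, FDR and inclusion-level columns of the authors' own comparisons were not used, 2 tables of events selected by the authors and 1 table of functional terms were left out, and the smaller WT feeding table served to check that list order matched between tables (1524 of 1524 and 1719 of 1719 shared events had the same counts).

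Counts plus 0.5 per effective length were turned into log2 ratios and fitted with limma 3.58.1 (R 4.3.3, trend) over all 28447 events and 4 groups, 2-sided, with Benjamini-Hochberg adjustment over all events. Host genes were fitted as log2(RPKM + 1) over the 11507 genes that averaged 0.5 RPKM or more. For an exon with several events, the event with the most counts of its rarer form stood for it. Exons were matched to GENCODE M21 by coordinates, and frames were translated through the reference coding transcript. The fits were tested on simulated data. Members and gene lists were chosen with earlier results of these data known. Named were the 8 called, non-overlapping exons of each direction and tested comparison with the largest difference (1 per gene), members of genes the study named, and called members of the splicing, decay and phospholipid lists; other lists have up to 4 examples. The result of 1 exon chosen by this rule is not reported here. Values of p cover the spread among these mice. Alternatives were other count minimums, additions to counts, weights, sample sets, scalings and RPKM filters, a replicate block and leaving out each library. A quasi-binomial test of the counts was added after the data were seen.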

Additional observations from a re-analysis of the deposited data

Results flagged for a closer look

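For 1 host gene and 4 exons the effect in one group went against that in the other. The level of 2410002F23Rik rose in fasted Lpin1-/- liver by 1.38 on the log2(RPKM + 1) scale against WT and changed by -0.51 in refed liver, a difference of 1.88 ± 0.29 SE (limma interaction, adjusted p = 0.0136), and 147 of 11507 genes (1.28%) passed this test. The differences that follow between exon effects were not tested, and those in refed liver involve the group that chose the exons. In percentage points of inclusion, the genotype effect on the Dhx9 exon of 139 bases was 23.9 in fasted and -6.9 in refed liver, a difference of 30.8. For the Hyal2 exon of 251 bases the effects were -40.0 and 6.6, a difference of -46.6. For the Prpf38b exon of 71 bases they were 41.1 and -11.2, a difference of 52.3. For the Prpf39 exon of 100 bases they were 42.3 and -16.7, a difference of 59. The Prpf39 exon also differed by 59 points in its feeding effect, with 19.5 in WT and -39.5 in Lpin1-/- liver.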

How the results depend on the processing

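Counts of called events lay within 1.5 times the stated ones under most alternatives. For fasted Lpin1-/- against fasted WT (233 events) the exception was a minimum of 50 counts in all libraries (131), which leaves fewer events. For refed against fasted Lpin1-/- (131 events) there were 82 with no count minimum, 231 with precision weights, 66 with the 6 libraries of the comparison alone and 225 with the quasi-binomial test. The described comparisons gave, between refed genotypes (14 events), 8 with no minimum, 30 with 1 added to each count, 74 with precision weights and 103 with the quasi-binomial test, and between WT feeding states (0 events) 2 and 4 with the last pair of tests. Leaving out 1 library gave 148 to 222, 58 to 136, 3 to 19 and 0 to 1 events in these 4 comparisons. Host gene counts (207, 195, 68 and 19) ranged over 91 to 213, 86 to 252, 19 to 95 and 1 to 24 in the same way. With 6 libraries alone the first was 86 and the last 0, and the last was 8 after rescaling. Of the named exon calls, 17 of 45 in the fasted and 20 of 38 in the refeeding comparison were lost on leaving out some library, and no direction changed. The cause was not tested. The edgeR test of the counts was not run.

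With the replicate number as a block, host genes gave 163, 162, 51 and 8 calls. Deviations of same-numbered libraries from their group means had correlations of -0.474 to 0.743, above 0.1 in 8 of 18 pairs. Their median was 0.034, beside -0.049 for pairs with other numbers. With 3 libraries in a group, these values cannot decide whether the numbers pair mice. No paired analysis was possible for the exon events because their lists carry no replicate numbers. An exon with a few counts of its rarer form, such as those of Mina, Uckl1, Nktr and U2af1l4, is limited by depth.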
